A study of Mus musculus with 36 samples.

Results

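Ptk7 is a transmembrane protein of the receptor tyrosine kinase family whose kinase domain is inactive, and it serves as a co-receptor in noncanonical Wnt signaling, the branch that does not run through β-catenin. Its extracellular N-terminal domain can be cut off and released by cells. In the intestinal epithelium, stem cells at the crypt base give rise to absorptive enterocytes and to secretory goblet, Paneth, enteroendocrine and tuft cells. The transcriptional coactivators YAP and TAZ, which act through TEAD factors, are known for a fetal-like program in epithelium that regenerates.

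The data described are the 12 libraries of organoids grown in senescent conditioned medium (SCM), 6 with an antibody to the N-terminal domain of Ptk7 (SCM + anti-Ptk7) and 6 with control IgG (SCM + IgG), of 36 libraries in the series. They were chosen by the treatment given in their labels. Organoids were epithelial cultures grown from jejunal crypts of C57BL/6 mice, a common inbred strain, and no genotype or age is given in the labels. SCM was serum-free medium conditioned by mouse embryonic fibroblasts made senescent by X-rays or doxorubicin (which of them for these libraries is not given in the sources used here), concentrated and mixed with the organoid medium IntestiCult (complete media). The other conditions were complete media + IgG, QCM + IgG (medium conditioned by quiescent fibroblasts), and complete media with the noncanonical ligand Wnt5a and either IgG or anti-Ptk7, with 6 libraries each. Crypts came from 6 mice, and the labels do not state which replicate number is which mouse, so that p-values measure the spread between these libraries. Complete media was paired with IgG alone in the libraries at hand, so the antibody's effect in that medium was not measured.

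The question was which genes change when Ptk7 is bound by antibody in the presence of SCM. The 12 libraries held between 10213464 and 17072397 counts. Their markers were those of epithelium: the 12 epithelial genes (Epcam, Cdh1, Vil1, Cdx2 and others) summed to 16560 to 23410 CPM (counts scaled to a common library size) in SCM + IgG and 14750 to 21320 CPM in SCM + anti-Ptk7, and none of the 12 was called. Of 12 fibroblast markers, Dcn, Col3a1 and Thy1 had 0 counts in all 12 libraries, and 4 more, Col1a1, Col1a2, Pdgfra and Lum, stayed under 1 CPM. The 12 summed to 84.4 to 145 CPM with IgG and 128 to 165 CPM with anti-Ptk7, nearly all of it Fbln1 (116 CPM against 146 CPM, edgeR adjusted p = 0.0553). Of 12 immune markers, 5 had 0 counts and the sum lay between 15.5 and 21.3 CPM with IgG and between 12.8 and 19.6 CPM with anti-Ptk7. Of 12 endothelial, muscle and neural markers, Des and Kdr had 0 counts, 6 stayed under 1 CPM, and the sums were 0.896 to 3.47 CPM and 1.64 to 3.86 CPM. Mitochondrially encoded genes took 0.388% to 0.764% of the counts in SCM + IgG and 0.606% to 0.791% in SCM + anti-Ptk7, and the part of this in the results was not tested.

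A pair of libraries stood apart from the others of their condition. On the first principal component of the 12 libraries, SCM + IgG replicate 1 lay at 87.25, and the other 5 IgG libraries lay between −11.4 and 25.2. On the second, SCM + anti-Ptk7 replicate 4 lay at −79.37. The named genes whose call depends on them are given with and without both.

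**Figure D1:**
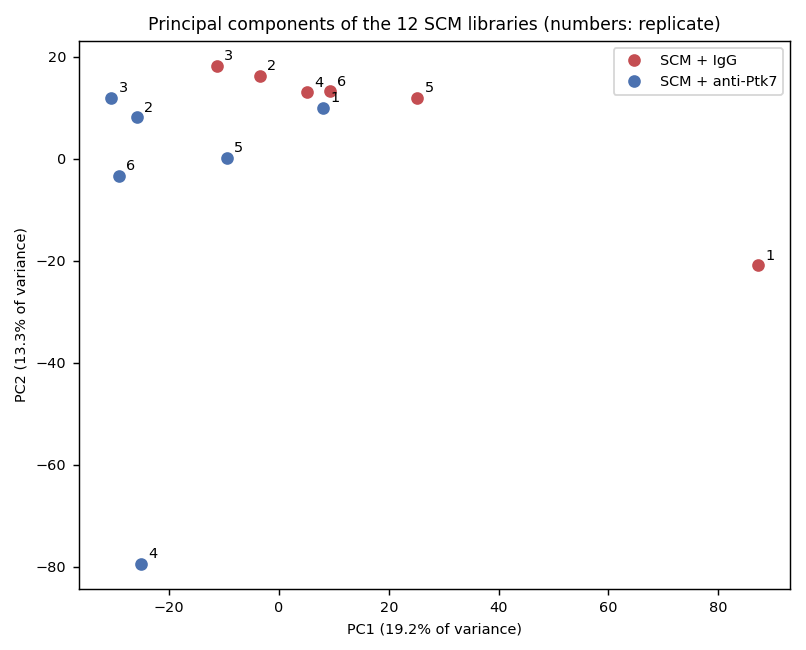
Principal component 1 (horizontal) against component 2 (vertical) of log2 CPM in the 12 SCM libraries, each point a library numbered by replicate and colored by antibody. SCM + IgG replicate 1 lies far to the right at 87.25, and SCM + anti-Ptk7 replicate 4 lies lowest at −79.37.

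Anti-Ptk7 raised 90 genes and lowered 100 of 15497 tested in SCM, which is 0.581% and 0.645%. A gene was called where edgeR's quasi-likelihood test gave a Benjamini-Hochberg adjusted p under 0.05 and the fold change was over 1.5. Among the genes lowered were Ccn2, Ly6a, the plasminogen activator gene Plat, the secreted scavenger receptor gene Dmbt1 and the hormone genes Gip, Cck and Sct. Among those raised were the chemokine gene Ccl20, the inhibitor genes Nfkbia and Nfkbiz, and the enzyme genes Cyp1a1, Dio1, Vnn1 and Npl. The median log2 fold change was 0.78 for the genes raised and −1.14 for the genes lowered, beside 0.00 over all genes tested. Of the 100 genes lowered 59 changed more than 2-fold, and of the 90 raised 32 did. Protein-coding genes made up 75 of the 90 and 89 of the 100.

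All 6 anti-Ptk7 libraries lay above all 6 IgG libraries for 41 of the 90 genes raised, and below them for 55 of the 100 lowered. Over all genes tested, the libraries separated without overlap upward for 0.736% and downward for 0.994%. At an adjusted p under 0.05 and any fold, 1.28% of the genes tested were higher and 1.44% lower.

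Genes were named by a rule that, for the 20 largest folds in each direction, took only genes whose groups did not overlap, so that the separation of those genes is part of how they were chosen. Without both outlying libraries the same test called 39 genes raised and 51 lowered, of which 32 and 43 were among the 90 and the 100. All 90 and all 100 kept their direction there with an unadjusted p under 0.05, and their median log2 fold changes were 0.71 and −1.08. The counts were 47 and 58 without SCM + IgG replicate 1 and 58 and 64 without SCM + anti-Ptk7 replicate 2. They were 44 and 42 with the spread estimated from the 12 libraries alone, and 2 and 10 where edgeR's glmTreat tested against a fold of 1.5 itself, which kept 9 of the 69 named genes called in SCM.

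The counts were larger when the replicate number was a block in the fit. The crypts came from mice numbered 1 to 6, and the libraries of each condition are numbered 1 to 6, but it is not stated that the numbers are the same. With the block 163 genes were raised (1.05%) and 236 lowered (1.52%), among them 87 of the 90, 99 of the 100 and all 69 named genes. Of the 70 genes named, 6 were highest in replicate 1 in all 6 conditions: Tm4sf4, Tnfrsf12a, Emp3, Lor, Wfdc2 and Serpinb9b. A gene described below as not passing did not pass in the fit without the block. The calls that the block added are counted with the lists, and among the marker lists it added Pdgfrb, a fibroblast marker, on the raised side (log2 fold change 2.01, adjusted p = 0.0498).

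In the fits of the 12 libraries alone, 67 of the 69 named genes could be tested, and 10 were called neither with nor without a block: Adh6a, Chac1, Clca4a, Dennd4b, Gm45244, Ppfia3, S100a1, Sct, Slc10a2 and Tnfaip2. A further 11 were not called without the block and were called with it, namely Alpi, Cyp1a1, D930016D06Rik, Hcn2, Hk2, Idua, Lrrc51, Prss22, Tnfrsf11a, Tnfrsf12a and Wfdc2. Gm13421 was called without the block and not with it.

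**Figure D2:**
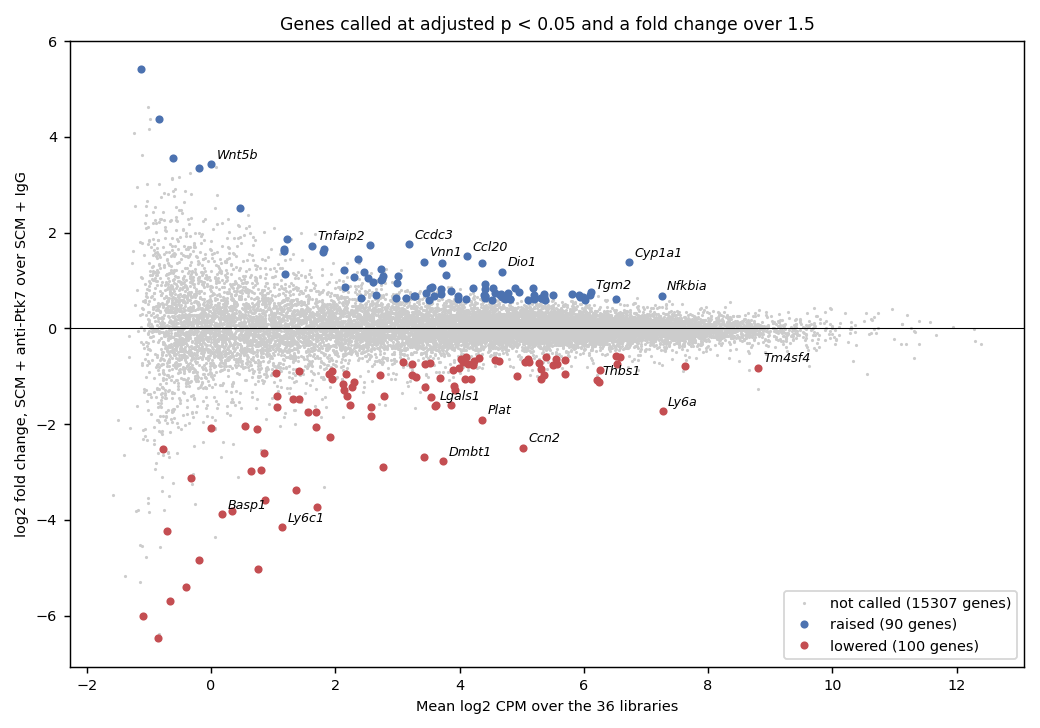
Each point is a gene, with its mean log2 CPM over the 36 libraries (horizontal) and its log2 fold change of SCM + anti-Ptk7 over SCM + IgG (vertical); blue points are the 90 genes raised, red points the 100 lowered. The folds of genes under a mean log2 CPM of 1 spread widely, while Ly6a, Tm4sf4, Nfkbia and Cyp1a1 were called at high levels.

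Promoter sequences of 52 of the 70 genes named in the text were found by symbol in a RefSeq table (GRCm38.p6), which holds windows from 250 bases before to 50 bases after a start site. The 250 bases before the start are shown for 5 genes picked from the groups described next. Anti-Ptk7 raised the NF-κB-linked genes Ccl20 and Nfkbia and the xenobiotic enzyme gene Cyp1a1. It lowered the cornified envelope gene Lor and the brush border gene Alpi. Each stretch is written 5′ to 3′ on the strand of the gene. Capitals mark every match to 5 motifs. GGGNNNTTCC or its complement GGAANNNCCC, a κB-type motif, was in Ccl20, Nfkbia and also Alpi, a gene that was lowered. It was not in the 250 bases of Tnfaip2, another NF-κB target that was raised and is not shown. GCGTG or its complement CACGC, the core of the element bound by the aryl hydrocarbon receptor, was in Cyp1a1 and Ccl20. CATTCC, a TEAD core, was in Ccl20 as well. TGAGTCA, an AP-1 motif, was in Lor, and TATAAA or TTTATA in Cyp1a1, Lor and Alpi.
Ccl20, chr1:83116516-83116765, plus strand: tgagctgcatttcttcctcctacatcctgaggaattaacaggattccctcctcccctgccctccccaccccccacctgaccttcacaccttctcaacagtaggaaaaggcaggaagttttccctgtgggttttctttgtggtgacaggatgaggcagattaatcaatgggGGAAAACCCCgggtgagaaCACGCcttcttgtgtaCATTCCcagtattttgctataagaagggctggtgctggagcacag
Nfkbia, chr12:55492648-55492897, minus strand: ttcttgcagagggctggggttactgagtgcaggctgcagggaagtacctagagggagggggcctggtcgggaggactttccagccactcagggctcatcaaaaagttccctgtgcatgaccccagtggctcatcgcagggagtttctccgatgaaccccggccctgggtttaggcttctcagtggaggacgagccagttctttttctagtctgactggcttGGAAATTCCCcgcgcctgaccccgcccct
Cyp1a1, chr9:57697363-57697612, plus strand: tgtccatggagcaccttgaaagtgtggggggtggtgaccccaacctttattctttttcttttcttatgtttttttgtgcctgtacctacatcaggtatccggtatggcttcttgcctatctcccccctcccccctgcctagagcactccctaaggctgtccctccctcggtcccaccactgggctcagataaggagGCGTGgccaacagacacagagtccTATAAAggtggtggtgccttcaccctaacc
Lor, chr3:92083143-92083392, minus strand: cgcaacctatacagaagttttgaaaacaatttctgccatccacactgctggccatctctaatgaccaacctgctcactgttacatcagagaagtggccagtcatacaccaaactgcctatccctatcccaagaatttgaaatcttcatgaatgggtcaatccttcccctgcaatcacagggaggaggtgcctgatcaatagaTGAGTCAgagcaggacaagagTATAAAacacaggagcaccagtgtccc
Alpi, chr1:87101607-87101856, minus strand: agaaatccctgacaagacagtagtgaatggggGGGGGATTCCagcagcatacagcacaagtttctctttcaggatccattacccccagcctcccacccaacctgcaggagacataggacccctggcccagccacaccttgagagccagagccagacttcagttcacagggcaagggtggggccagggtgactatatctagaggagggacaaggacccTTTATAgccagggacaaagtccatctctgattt

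Windows were available for 64 genes raised (83 windows), 68 genes lowered (89 windows) and 10482 genes tested (13378 windows). The TEAD core GGAATG or CATTCC was in 10.8% of the windows of genes raised, 16.9% of those of genes lowered and 12.5% of all. The AP-1 motif TGACTCA or TGAGTCA was in 8.43%, 5.62% and 3.93%, and TATAAA or TTTATA in 6.02%, 18% and 7.53%. The κB-type motif was in 13.3%, 11.2% and 6.17%, and GCGTG or CACGC in 48.2%, 32.6% and 49.3%. All were searched on both strands, the last 2 motifs were chosen after the genes were known, and these shares are descriptions without a test.

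Ptk7 itself was not called. It lay at 4.62, 13.9 and 18.1 CPM (lowest, median and highest) with IgG and 4.94, 9.75 and 16.8 CPM with anti-Ptk7, a log2 fold change of −0.33 ± 0.25 (SE; adjusted p = 0.538). The 2 groups overlapped over most of their range. Of 27 genes of Ptk7 and noncanonical Wnt signaling tested, 1 was raised and none lowered, with a median of 0.10 (−0.02 without both outlying libraries). In the fit with the block the planar polarity gene Vangl1 was lowered as well (adjusted p = 0.00969). The gene raised was Wnt5b, a noncanonical Wnt ligand, with 12 counts in all with IgG and 134 with anti-Ptk7, or 0, 0 and 0.588 CPM against 0.427, 1.05 and 3.94 CPM (log2 fold change 3.43 ± 0.97, adjusted p = 0.0474). The groups overlapped, and it was not called without both outlying libraries (adjusted p = 0.188). The receptor genes Fzd7 (0.43 ± 0.22, adjusted p = 0.299) and Ror2 (−0.10 ± 0.15, adjusted p = 0.794) and the sheddase genes Mmp14 (0.20 ± 0.27, adjusted p = 0.759) and Adam17 (0.03 ± 0.12, adjusted p = 0.943) did not pass the test. Fzd5, a Frizzled receptor gene, was lower at a smaller fold (−0.42 ± 0.11, adjusted p = 0.0261). Of 31 calcium signaling genes and 17 canonical Wnt targets tested, none was called, with medians of 0.02 and 0.10. Wnt5b was not called without IgG library 1, 3, 4 or 5, or anti-Ptk7 library 2, 4, 5 or 6, each left out alone (adjusted p from 0.0599 to 0.124).

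Of 20 YAP/TEAD targets tested, Ccn2 and Thbs1 were lowered and none was raised. Ccn2 (chr10:24595442-24598683) encodes a secreted matricellular growth factor. Its values were 17.9, 53.5 and 69.7 CPM with IgG and 3.49, 7.46 and 16.1 CPM with anti-Ptk7, a log2 fold change of −2.50 ± 0.52 (SE; adjusted p = 0.00554). All 6 anti-Ptk7 libraries lay below all 6 IgG libraries. An antisense transcript gene, Gm15270, overlaps Ccn2 on the opposite strand and was lowered as well (−2.90 ± 0.55, adjusted p = 0.00284), and as the library kit does not mark strand, reads of the overlap cannot be told apart. Thbs1 (chr2:118111876-118127133), which encodes the matricellular protein thrombospondin-1, lay at 51.3, 85.7 and 97.3 CPM with IgG and 27.8, 39.5 and 43.4 CPM with anti-Ptk7 (−1.09 ± 0.29, adjusted p = 0.0325), again without overlap.

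The other 18 YAP/TEAD targets did not pass. Amotl2 had a log2 fold change of −0.82 ± 0.24 (adjusted p = 0.0535), Ccn1 −0.81 ± 0.27 (adjusted p = 0.102) and Ajuba −0.68 ± 0.27 (adjusted p = 0.174), and the estimate was below 0 for 14 of the 20, with a median of −0.27 beside 0.00 over all genes. Both calls held without both outlying libraries. With the replicate block 6 of the 20 were lowered, Ajuba (adjusted p = 0.000843), Amotl2 (0.00414), Ccn1 (0.00548) and Ptpn14 (0.0462) with them. Thbs1 was not called without IgG library 4, 5 or 6, or anti-Ptk7 library 2, 3, 5 or 6, each left out alone (adjusted p from 0.0536 to 0.0733). Among 21 genes of the Hippo pathway and TEAD factors none was called, Yap1 had −0.09 ± 0.15 (adjusted p = 0.821) and Tead4 −1.06 ± 0.34 (adjusted p = 0.0878), and the median was −0.18. With the block Tead4 (adjusted p = 0.00251) and Amotl2 were called lower.

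Of 16 fetal-like and revival genes tested, 5 were lowered and none raised, with a median of −0.88 and an estimate below 0 for 15 of 16. Ly6a (chr15:74994877-74998031) encodes the surface protein Sca-1, a marker of fetal-like and regenerating epithelium. It lay at 167, 214 and 488 CPM with IgG and 40.2, 72.1 and 140.1 CPM with anti-Ptk7, a log2 fold change of −1.73 ± 0.30 (SE; adjusted p = 0.000967). The groups did not overlap, and it was called under each of the 24 alternatives tried. Its relative Ly6c1 was lowered too, with a log2 fold change of −4.16 ± 0.64 (adjusted p = 0.000207), at 0.897, 3.47 and 4.82 CPM with IgG and 0, 0 and 0.645 CPM with anti-Ptk7, where it had 14 counts in all. Genes of the Ly6 family are similar in sequence, and how reads shared between them were counted is not given in the sources used here.

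Basp1, a gene of a membrane-bound signaling protein, lay at 0.574, 0.859 and 2.34 CPM with IgG and 0, 0 and 0.287 CPM with anti-Ptk7 (−3.88 ± 0.83, adjusted p = 0.00709), with 88 counts against 5. Emp3, an epithelial membrane protein gene, lay at 13.2, 18.6 and 29.7 CPM and 3.85, 8.21 and 11.4 CPM (−1.29 ± 0.29, adjusted p = 0.0104), without overlap. Tnfrsf12a, the receptor gene of the cytokine TWEAK, was at 203, 251 and 393 CPM with IgG and 101, 163 and 204 CPM with anti-Ptk7 (−0.79 ± 0.21, adjusted p = 0.0317), with a slight overlap of the groups. Without both outlying libraries Ly6a and Ly6c1 were still called, and Basp1, Emp3 and Tnfrsf12a were not (adjusted p = 0.0565, 0.0615 and 0.142). Clu, a marker of revival stem cells (−0.96 ± 0.40, adjusted p = 0.202), and Anxa1 (−1.27 ± 0.38, adjusted p = 0.0569) did not pass. With the replicate block 11 of the 16 were lowered, Clu (adjusted p = 1.84e-08), Anxa1 (9.00e-09), Anxa2 (6.90e-06), Anxa3 (3.29e-06), Anxa8 (0.000925) and Msln (3.29e-06) with them. Without both outlying libraries the median of the list was −0.64. Tnfrsf12a was not called without IgG library 1 or 6, or anti-Ptk7 library 2, 3 or 6, each left out alone (adjusted p from 0.0539 to 0.125).

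The cornification genes, which epidermis and other stratified epithelia use to build a barrier, had 2 of 15 lowered, none raised, and a median of −0.85. Lor, the loricrin gene, lay at 3.85, 10.1 and 16.9 CPM with IgG and 1.75, 2.97 and 5.45 CPM with anti-Ptk7 (−1.64 ± 0.42, adjusted p = 0.0261), with some overlap. Prss22, a serine protease gene, lay at 3.44, 4.66 and 10.3 CPM and 0, 1.17 and 2.29 CPM (−2.27 ± 0.50, adjusted p = 0.0101), without overlap. Neither was called without both outlying libraries (adjusted p = 0.168 and 0.0561), and the median of the list was −0.50 there. In the fit with the block 5 of the 15 were lowered and 1 raised. Of 11 keratin genes Krt80 was lowered (−1.75 ± 0.41, adjusted p = 0.0149), at 3.79, 5.55 and 7.24 CPM with IgG and 0.783, 1.45 and 3.36 CPM with anti-Ptk7, while Krt19, a keratin of simple epithelium, had −0.33 ± 0.21 (adjusted p = 0.452). With the block 4 of the 11 were lowered, among them Krt7 (adjusted p = 1.30e-05) and Krt23 (1.11e-05). Lor was not called without IgG library 1, or anti-Ptk7 library 2, 3 or 4, each left out alone (adjusted p from 0.0581 to 0.0955).

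Proteases and their inhibitors held the next group: of 24 tested, 4 were lowered and none raised, with a median of −0.24. The 4 were Plat, Serpinb9b, Wfdc2 and Prss22, and Prss22 was counted above among the cornification genes as well. In the fit with the block Plaur (adjusted p = 0.000112) and Serpinb5 (0.00692) were lowered as well. Plat (chr8:22757727-22782844) encodes tissue plasminogen activator, a secreted serine protease. It lay at 15.7, 31.2 and 42 CPM with IgG and 3.73, 8.46 and 13.4 CPM with anti-Ptk7 (−1.91 ± 0.28, adjusted p = 0.00013), without overlap, and was called under each of the 24 alternatives. Serpinb9b, an intracellular serpin gene, was at 6.82, 15.9 and 40.4 CPM and 1.24, 2.49 and 7.88 CPM (−2.68 ± 0.58, adjusted p = 0.00766), and Wfdc2, which encodes a secreted whey acidic protein-type inhibitor, at 9.79, 21.1 and 45.3 CPM and 3.63, 6.04 and 14.7 CPM (−1.59 ± 0.37, adjusted p = 0.0153). Both overlapped between groups and were lost without both outlying libraries (adjusted p = 0.0696 and 0.124). Serpinb9b has close paralogs, and an antisense gene, Gm36099, overlaps it and was lowered too. Wfdc2 was not called without IgG library 1 (adjusted p = 0.0709).

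Among other genes lowered without overlap, Lgals1 had the smallest adjusted p of the genes named. It encodes galectin-1, a secreted lectin, and lay at 11.3, 19.7 and 22.7 CPM with IgG and 4.36, 5.29 and 9.86 CPM with anti-Ptk7 (−1.62 ± 0.19, adjusted p = 9.29e-06). Crip2, a LIM-domain protein gene, lay at 13.4, 20 and 28.7 CPM and 3.77, 7.31 and 9.55 CPM (−1.59 ± 0.26, adjusted p = 0.000434). Adam8, a membrane metalloprotease gene, lay at 8.24, 13.8 and 27.6 CPM and 2.7, 5.41 and 8.04 CPM (−1.44 ± 0.41, adjusted p = 0.0469). Zfp365 and Klrg2 had log2 fold changes of −3.38 ± 0.78 (adjusted p = 0.0134) and −1.82 ± 0.35 (adjusted p = 0.00284). The remaining genes of the 20 with the largest folds were Clca4a, Ecscr, Dennd4b, Slc10a2, 4930461G14Rik, Adh6a and Lrrc51, with log2 fold changes between −1.74 and −1.23. Of these 20, 9 were called without both outlying libraries. The 11 not called there were Zfp365 (adjusted p = 0.0595), Adam8 (0.135), Clca4a (0.137), Ecscr (0.15), Dennd4b (0.0653), 4930461G14Rik (0.102), Adh6a (0.0543), Lrrc51 (0.0767), Slc10a2, Prss22 and Emp3. Adam8 was not called without IgG library 1, 4, 5 or 6, or anti-Ptk7 library 2, 3, 4 or 6, each left out alone (adjusted p from 0.0671 to 0.118). Clca4a, Dennd4b, Ecscr and 4930461G14Rik lost their calls on leaving out any one of 9, 6, 5 and 2 of the 12 libraries.

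The 5 lowered genes with the highest mean CPM over the 12 libraries were Tm4sf4, Ly6a, Tnfrsf12a, Alpi and Mrpl54. Tm4sf4, which encodes a tetraspan membrane protein, lay at 428, 539 and 865 CPM with IgG and 249.3, 314 and 420.4 CPM with anti-Ptk7 (−0.83 ± 0.23, adjusted p = 0.0448). Mrpl54, a mitochondrial ribosome gene, lay at 98.7, 115 and 127 CPM and 66.3, 75.5 and 81.9 CPM (−0.60 ± 0.09, adjusted p = 0.000207). Neither overlapped between groups, and Tm4sf4 was not called without both outlying libraries (adjusted p = 0.197). Tm4sf4 was not called without IgG library 1, 2, 5 or 6, or anti-Ptk7 library 2, 3, 4, 5 or 6, each left out alone (adjusted p from 0.0521 to 0.16). The fold of Mrpl54 was under 1.5 without IgG library 1 or 6, or anti-Ptk7 library 1, each left out alone (adjusted p from 0.000829 to 0.00123).

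Enteroendocrine cells release gut hormones. Of 20 enteroendocrine genes tested, 3 were lowered and none raised, with a median of −0.15 (−0.25 without both outlying libraries). The block added Nts on the lowered side (adjusted p = 0.0425). Gip, the incretin gene of K cells, lay at 36.5, 45.8 and 58.5 CPM with IgG and 11.5, 21.5 and 34.6 CPM with anti-Ptk7 (−1.06 ± 0.21, adjusted p = 0.00368). Cck, the cholecystokinin gene, lay at 76.8, 99.7 and 108 CPM and 37.6, 55.2 and 59 CPM (−0.87 ± 0.13, adjusted p = 0.00012). The groups did not overlap for either gene. Sct, the secretin gene, lay at 7.1, 11.2 and 14.4 CPM and 5.38, 6.17 and 7.71 CPM (−0.76 ± 0.16, adjusted p = 0.00588), with overlap. All 3 calls held without both outlying libraries, and that of Sct was lost in the fits of the 12 libraries alone (adjusted p = 0.0794, and 0.101 when replicate was a block). The granule protein genes Chga (−0.10 ± 0.14, adjusted p = 0.766) and Chgb (−0.03 ± 0.13, adjusted p = 0.936) and the lineage factor Neurog3 (0.40 ± 0.20, adjusted p = 0.299) did not pass the test. In bulk RNA, fewer cells of a type and less RNA per cell cannot be told apart.

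The list of 13 Paneth and Reg genes tested also held Dmbt1, a mucosal defense gene that is not of the Reg family. Dmbt1 alone of the list was called, and it was lowered. It encodes a secreted mucosal scavenger receptor and lay at 6.71, 20.2 and 49.6 CPM with IgG and 0.292, 2.87 and 8.39 CPM with anti-Ptk7 (−2.78 ± 0.47, adjusted p = 0.000902). The groups overlapped, and the gene was called under each of the 23 alternatives that kept it. Lyz1, the Paneth cell lysozyme gene, was lower at a fold under 1.5 (−0.54 ± 0.12, adjusted p = 0.0133). Without both outlying libraries 2 genes of the list were called lower, Dmbt1 and Lyz1. The median of the list was −0.37.

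Of 25 enterocyte genes 2 were lowered and none raised, with a median of 0.12. Slc10a2, the gene of the bile acid transporter of the brush border, lay at 3.21, 5.34 and 8.57 CPM and 1, 2.1 and 3.13 CPM (−1.41 ± 0.36, adjusted p = 0.0257). Alpi, the intestinal alkaline phosphatase gene, lay at 108, 128 and 173 CPM and 61.2, 86.7 and 108 CPM (−0.58 ± 0.16, adjusted p = 0.0403), and its fold was the smallest of all genes lowered, just inside the limit of 1.5. Neither was called without both outlying libraries (adjusted p = 0.0516 and 0.108), and Alpi was called under 6 of the 24 alternatives. Slc10a2 was not called without IgG library 5, or anti-Ptk7 library 2 or 5, each left out alone (adjusted p from 0.0562 to 0.07), nor in the fits of the 12 libraries alone (adjusted p = 0.0607, and 0.0956 when replicate was a block). Alpi was not called without IgG library 1, 3, 4 or 5, or anti-Ptk7 library 2, 3, 4 or 6, each left out alone (adjusted p from 0.0541 to 0.106). In the fit with the block 3 of the 25 were lowered and 1 raised, as Apoc3 was added on the lowered side (−0.65, adjusted p = 0.0474) and Treh on the raised side (0.65, adjusted p = 0.0494). Fabp1 had 0.38 ± 0.15 (adjusted p = 0.172) and Sis 0.20 ± 0.25 (adjusted p = 0.734). None of 15 goblet genes, 8 tuft genes, 16 crypt base stem cell genes or 26 cell cycle genes tested was called, and with the replicate block Aqp4 of the stem cell list was raised (adjusted p = 0.0173). Lgr5, the stem cell marker, had −0.16 ± 0.22 (adjusted p = 0.763) and Olfm4 0.02 ± 0.26 (adjusted p = 0.978). Soat1, a cholesterol esterification gene of the stem cell list, was higher at a fold under 1.5 (0.44 ± 0.10, adjusted p = 0.00774).

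Genes of the unfolded protein response were lower in several members at small folds. Of 23 tested, Sdf2l1 and Chac1 were called lower, 7 were lower at an adjusted p under 0.05 and any fold (1.44% of all genes were), and none was higher by either measure. Sdf2l1, which encodes a chaperone cofactor of the endoplasmic reticulum, lay at 84.8, 101 and 115 CPM with IgG and 52.2, 60.4 and 68.7 CPM with anti-Ptk7 (−0.75 ± 0.10, adjusted p = 2.86e-05), without overlap. Chac1, an enzyme gene for glutathione breakdown that is induced by this response, lay at 17.1, 19.9 and 29 CPM and 7.36, 12.2 and 21.9 CPM (−0.77 ± 0.19, adjusted p = 0.0186), with overlap, and it was not called in the fits of the 12 libraries alone (adjusted p = 0.141, and 0.105 when replicate was a block). The other 5 were Creld2 (−0.40 ± 0.08, adjusted p = 0.00536), Manf (−0.39 ± 0.08, adjusted p = 0.00476), Calr (−0.30 ± 0.06, adjusted p = 0.00764), Pdia4 (−0.28 ± 0.07, adjusted p = 0.0343) and Dnajc3 (−0.22 ± 0.06, adjusted p = 0.0422). Hspa5, the main chaperone of the compartment, had −0.14 ± 0.06 (adjusted p = 0.187), and Hspa1b was called lower in the fit with the block (adjusted p = 0.0493).

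Spry1, a feedback inhibitor of receptor tyrosine kinases, was lowered without overlap (34.2, 46.4 and 56.1 CPM with IgG and 23.4, 28.5 and 34 CPM with anti-Ptk7, log2 fold change −0.69 ± 0.15, adjusted p = 0.00853). Hk2, a hexokinase gene, had −0.63 ± 0.18 (adjusted p = 0.0469, and 0.238 without both outlying libraries), and Anxa13, an annexin gene of intestinal epithelium, −0.64 ± 0.11 (adjusted p = 0.000665). Without both outlying libraries Anxa13 kept an adjusted p of 0.0131 at a fold under 1.5. In the list of S100 and annexin genes, 1 of 22 was lowered and 1 raised, S100a1 (0.63 ± 0.16, adjusted p = 0.0276), and the median was −0.62. In the fit with the block 10 of the 22 were lowered, among them S100a6 (adjusted p = 0.00027) and Anxa5 (8.46e-06). S100a1 was not called without IgG library 2, 3, 4 or 5, or anti-Ptk7 library 4, 5 or 6, each left out alone (adjusted p from 0.0536 to 0.0697). The call was also lost in the fits of the 12 libraries alone (adjusted p = 0.138, and 0.0737 when replicate was a block). Of 53 cytosolic ribosomal protein genes none was called, the estimate was below 0 for 52, and the median was −0.36, or between −0.37 and −0.33 under 4 other scalings. Of 10 mitochondrially encoded genes none was called (median 0.10). Hk2 was not called without IgG library 1, 2, 3, 4, 5 or 6, or anti-Ptk7 library 2, 3, 4, 5 or 6, each left out alone (adjusted p from 0.0511 to 0.134).

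**Figure D3:**
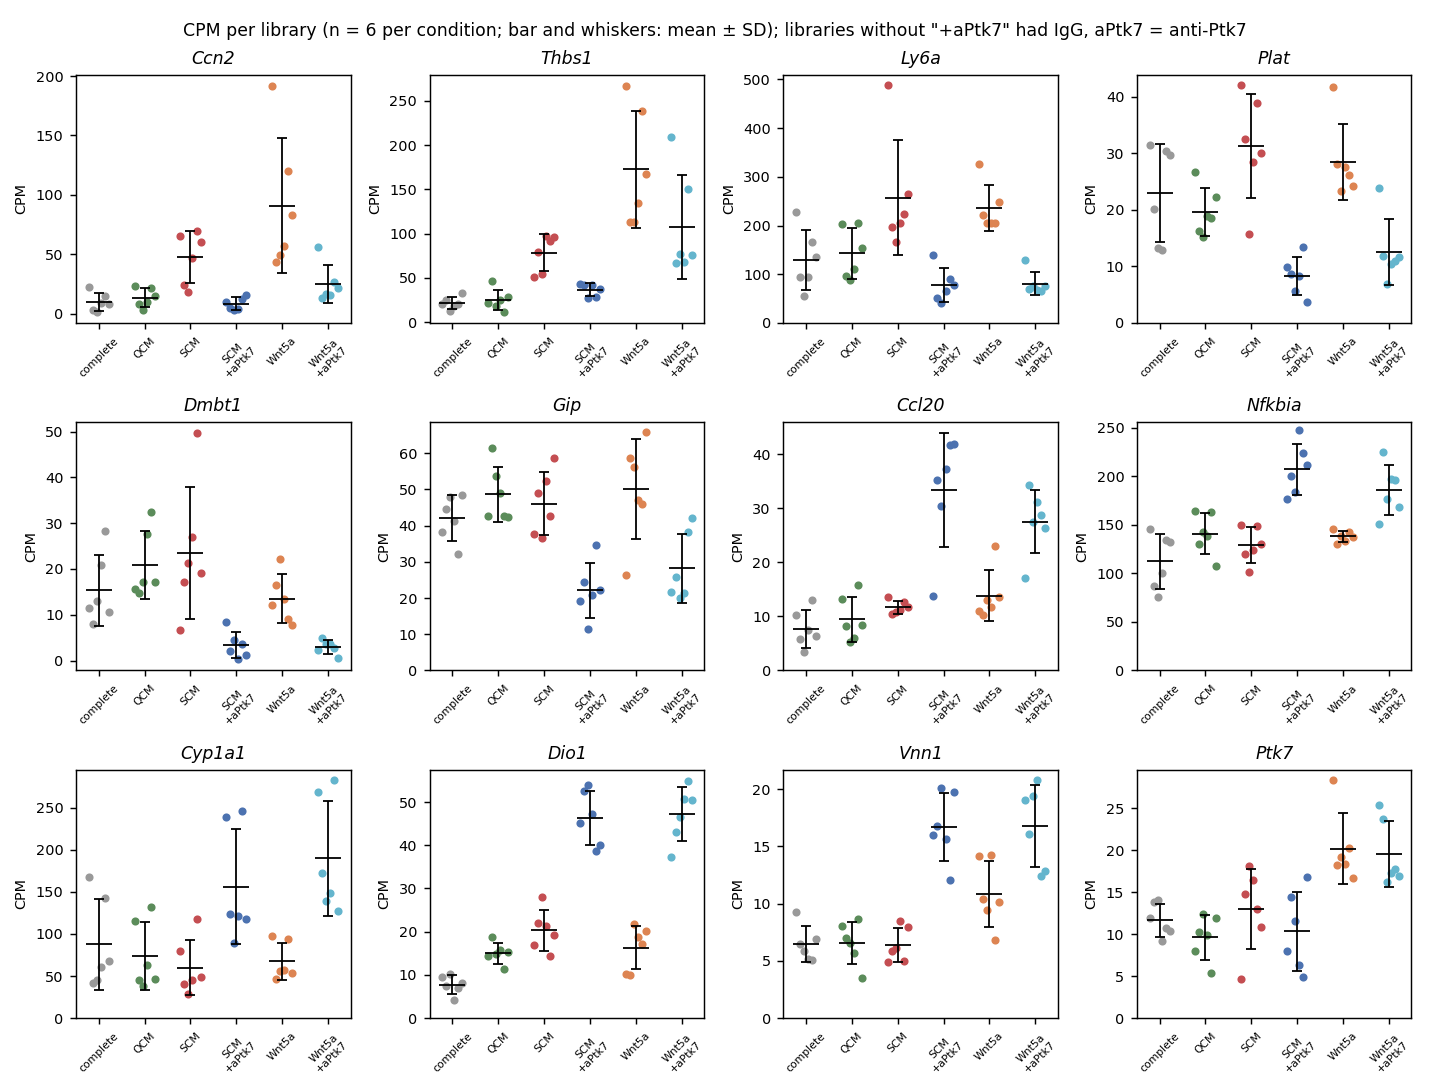
CPM per library in the 6 conditions for 12 genes, each point a library, with the mean ± SD over 6 libraries in black. In SCM the anti-Ptk7 libraries lie below all IgG libraries for Ccn2, Thbs1, Ly6a, Plat and Gip, and above them for Ccl20, Nfkbia, Dio1 and Vnn1, while Ptk7 overlaps.

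NF-κB is a transcription factor of inflammatory signaling whose targets include its own inhibitors. Of 19 NF-κB targets, 3 were raised and none lowered, with a median of 0.25. Nfkbia (chr12:55489410-55492647) encodes IκBα, which holds NF-κB in the cytoplasm. It lay at 101, 127 and 150.4 CPM with IgG and 176, 206 and 247 CPM with anti-Ptk7 (0.68 ± 0.13, adjusted p = 0.00265), without overlap. Nfkbiz, the gene of the nuclear regulator IκBζ, lay at 21.7, 28.9 and 30.9 CPM and 32.8, 45.6 and 58.5 CPM (0.76 ± 0.18, adjusted p = 0.0186), also without overlap. Tnfaip2, a gene induced by TNF, lay at 0, 1.21 and 2.06 CPM and 2.05, 3.97 and 6.33 CPM (1.73 ± 0.42, adjusted p = 0.019). For Tnfaip2 the lowest anti-Ptk7 library lay just under the highest IgG library. Tnfaip3 (0.39 ± 0.21, adjusted p = 0.344) and Nfkb1 (0.25 ± 0.13, adjusted p = 0.348) did not pass. Without both outlying libraries Nfkbia and Tnfaip2 were called and Nfkbiz was not (adjusted p = 0.0696). Nfkbiz was not called without IgG library 6, or anti-Ptk7 library 2, each left out alone (adjusted p from 0.0523 to 0.0524). Tnfaip2 was not called without anti-Ptk7 library 2 (adjusted p = 0.0557), nor in the fits of the 12 libraries alone (adjusted p = 0.121, and 0.101 when replicate was a block).

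Of 16 chemokine and cytokine genes, Ccl20 alone was called. It encodes the ligand of CCR6 that intestinal epithelium makes over lymphoid follicles. Ccl20 (chr1:83116766-83119167) lay at 10.4, 11.5 and 13.5 CPM with IgG and 13.8, 36.2 and 42 CPM with anti-Ptk7 (1.51 ± 0.27, adjusted p = 0.00156). Replicate 1 was the lowest anti-Ptk7 library, just above the IgG range, and the other 5 were at 30.4 CPM or more. Ccl28, a mucosal chemokine gene, had 0.69 ± 0.20 (adjusted p = 0.0599, and 0.00294 with the replicate block, where it was called). Cxcl16, another chemokine gene, was called lower with the block (log2 fold change −0.86, adjusted p = 1.34e-05). In the TNF superfamily, 2 of 20 were raised and 1 lowered, Tnfrsf12a, and the fit with the block lowered Tnfrsf23 as well (−1.17, adjusted p = 0.000742). Tnfsf13b, the gene of the B cell survival factor BAFF, lay at 2.6, 3.85 and 6.96 CPM and 7.55, 9.94 and 18 CPM (1.46 ± 0.34, adjusted p = 0.0153), and Tnfrsf11a, the gene of the receptor RANK, at 31.7, 57.8 and 68.6 CPM and 70.7, 84.1 and 106 CPM (0.60 ± 0.16, adjusted p = 0.0351). The groups did not overlap for either, and neither was called without both outlying libraries (adjusted p = 0.0771 and 0.0886). Tnfrsf11a was not called without IgG library 1 or 6, or anti-Ptk7 library 2, 3 or 5, each left out alone (adjusted p from 0.0562 to 0.116).

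Cyp1a1, the monooxygenase gene induced through the aryl hydrocarbon receptor, lay at 28, 47.1 and 118 CPM with IgG and 89.8, 123 and 246 CPM with anti-Ptk7 (1.39 ± 0.37, adjusted p = 0.0323). Its groups overlapped, and it was not called without both outlying libraries (adjusted p = 0.0522). With the replicate block Cyp1a1 was called (log2 fold change 1.43, adjusted p = 1.1e-08). In the 12 libraries alone its adjusted p was 0.0696, and 7.74e-05 when replicate was a block. None of the other 6 genes of that receptor's list was called, for example Ahrr (0.13 ± 0.87, adjusted p = 0.962) and Nqo1 (−0.01 ± 0.14, adjusted p = 0.978). Of 33 xenobiotic and retinoid enzymes, 2 were raised and none lowered, with a median of 0.15 (0.07 without both outlying libraries, and 3 raised and 2 lowered with the replicate block, which added Sult1c2 to those raised and gave Aldh1a3 and Ugt2b5 as lowered). These were Dio1, which encodes the deiodinase that activates thyroid hormone, at 14.4, 20.2 and 27.9 CPM and 38.7, 46.2 and 53.8 CPM (1.19 ± 0.18, adjusted p = 0.000207), and Cyp3a25, a cytochrome P450 gene of a family of close paralogs, at 46.3, 54.3 and 70.5 CPM and 67.7, 94.1 and 112 CPM (0.70 ± 0.18, adjusted p = 0.0307). The groups did not overlap for Dio1 and did for Cyp3a25, which was not called without both outlying libraries (adjusted p = 0.109). Cyp1a1 was not called without IgG library 1, 2, 3, 4 or 6, or anti-Ptk7 library 1, 2 or 5, each left out alone (adjusted p from 0.0513 to 0.0763). Cyp3a25 was not called without IgG library 1, 4, 5 or 6, or anti-Ptk7 library 2, 3 or 5, each left out alone (adjusted p from 0.051 to 0.0891).

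Vnn1 (chr10:23894688-23905343) encodes a pantetheinase, an enzyme of vitamin B5 recycling. It lay at 4.88, 5.99 and 8.46 CPM with IgG and 12.1, 16.4 and 20.1 CPM with anti-Ptk7 (1.39 ± 0.20, adjusted p = 0.00012), without overlap, and was called under each of the 24 alternatives. Hsd11b2, which encodes the enzyme that inactivates glucocorticoids, lay at 3.44, 4.68 and 6.18 CPM and 9.4, 10.3 and 15.3 CPM (1.24 ± 0.26, adjusted p = 0.00568). Npl, a lyase gene of sialic acid breakdown, lay at 6.64, 13.3 and 21.6 CPM and 22.2, 34 and 46.4 CPM (1.37 ± 0.30, adjusted p = 0.00869). Renbp, an epimerase gene of amino sugar metabolism, lay at 3.26, 4.33 and 5.68 CPM and 7.29, 8.75 and 11.9 CPM (1.03 ± 0.20, adjusted p = 0.00328). None of these overlapped between groups, and Hsd11b2 was not called without both outlying libraries (adjusted p = 0.0516).

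Mep1a, the gene of a brush border metalloprotease subunit, meprin α, lay at 3.13, 7.57 and 11.5 CPM with IgG and 12, 18.6 and 29.4 CPM with anti-Ptk7 (1.36 ± 0.27, adjusted p = 0.0047). Ccdc3, a secreted protein gene, had the largest fold of the protein-coding genes raised that met the naming limits, at 3.28, 5.14 and 7.97 CPM and 8.04, 19.4 and 20.8 CPM (1.76 ± 0.30, adjusted p = 0.000997). Its lowest anti-Ptk7 library, replicate 4, lay just above the IgG range. An opposite-strand gene that overlaps Ccdc3, Gm26776, was raised too, and their shared reads cannot be told apart. Hcn2, an ion channel gene, lay at 0.598, 2.39 and 3.6 CPM and 4.73, 6.18 and 10.1 CPM (1.59 ± 0.30, adjusted p = 0.00284), and in the fit of the 12 libraries alone its adjusted p was 0.0554. It belongs to the 27 ion transport and secretion genes, of which 1 was raised and 1 lowered, or 3 and 2 in the fit with the block. That fit added Slc26a3 (0.60, adjusted p = 0.00232) and Aqp4 on the raised side and Ano1 (−0.82, adjusted p = 6.51e-06) on the lowered side.

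Nrarp, a target and feedback inhibitor of Notch, was the 1 gene raised of 14 Notch genes (25.1, 29.9 and 33.9 CPM and 33.7, 50.9 and 54.8 CPM, log2 fold change 0.69 ± 0.15, adjusted p = 0.00927). An opposite-strand gene, Gm38287, overlaps Nrarp and was raised as well. Hes1, another Notch target, had 0.14 ± 0.12 (adjusted p = 0.598). Tgm2, the tissue transglutaminase gene, lay at 38.5, 58.3 and 67.8 CPM and 75.4, 91.1 and 113 CPM (0.70 ± 0.14, adjusted p = 0.00536), without overlap, and its opposite-strand neighbor Gm20412 was raised as well. Phyh, an enzyme gene of peroxisomal fatty acid oxidation, lay at 70.2, 73.9 and 90.6 CPM and 90, 122 and 134 CPM (0.62 ± 0.11, adjusted p = 0.00131), with a slight overlap, and without both outlying libraries its fold was under 1.5 (adjusted p = 0.0141). The endocytic receptor gene Lrp1 was raised by 0.84 ± 0.22 (adjusted p = 0.03), Elmo1, a gene of engulfment and Rac signaling, by 0.84 ± 0.20 (adjusted p = 0.0159), and the lysosomal enzyme gene Idua by 0.84 ± 0.23 (adjusted p = 0.0421). The remaining genes of the 20 raised with the largest folds were Gm45244, Gm13421, D930016D06Rik, Efcab11, Nab2, Ppfia3 and Rnf32, with log2 fold changes between 0.82 and 1.86. Of these 20, 12 were called without both outlying libraries. The 8 not called there were Lrp1 (adjusted p = 0.101), Elmo1 (0.0747), Idua (0.146), Gm45244 (0.1), Efcab11 (0.0534), Ppfia3 (0.131), Hsd11b2 and Tnfsf13b. Lrp1 was not called without IgG library 1 or 6, or anti-Ptk7 library 2, 3 or 6, each left out alone (adjusted p from 0.0572 to 0.103). Elmo1 was not called without IgG library 1 (adjusted p = 0.0593). Idua was not called without IgG library 1, 2 or 6, or anti-Ptk7 library 2, 3, 4, 5 or 6, each left out alone (adjusted p from 0.0575 to 0.0968). Gm45244 and Ppfia3 lost their calls on leaving out any one of 4 and of 8 of the 12 libraries, respectively. The fold of Phyh was under 1.5 without anti-Ptk7 library 2 or 4, each left out alone (adjusted p from 0.00436 to 0.00473).

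Of 41 gene lists, 21 had no member called, among them the interferon and antigen presentation genes (20 tested), the AP-1 and immediate early genes (20), the BMP and TGF-beta response genes (19), the actomyosin and adhesion genes (33), the cholesterol and fatty acid synthesis genes (31), the p53 targets and senescence genes (21), the circadian clock genes (19) and the zinc transporters and metallothioneins (16). Their 8 medians lay between −0.20 and 0.04. With the replicate block 4 actomyosin and adhesion genes were lowered, among them Cnn2 (adjusted p = 1.20e-06), and 2 immediate early genes, Ier3 (6.78e-05) and Fosl1 (0.000487). In the BMP list Bmp1 was raised (0.0474) and Bmp8b lowered (0.000306), and in the zinc list Slc39a8 was raised (1.40e-05).

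**Figure D4:**
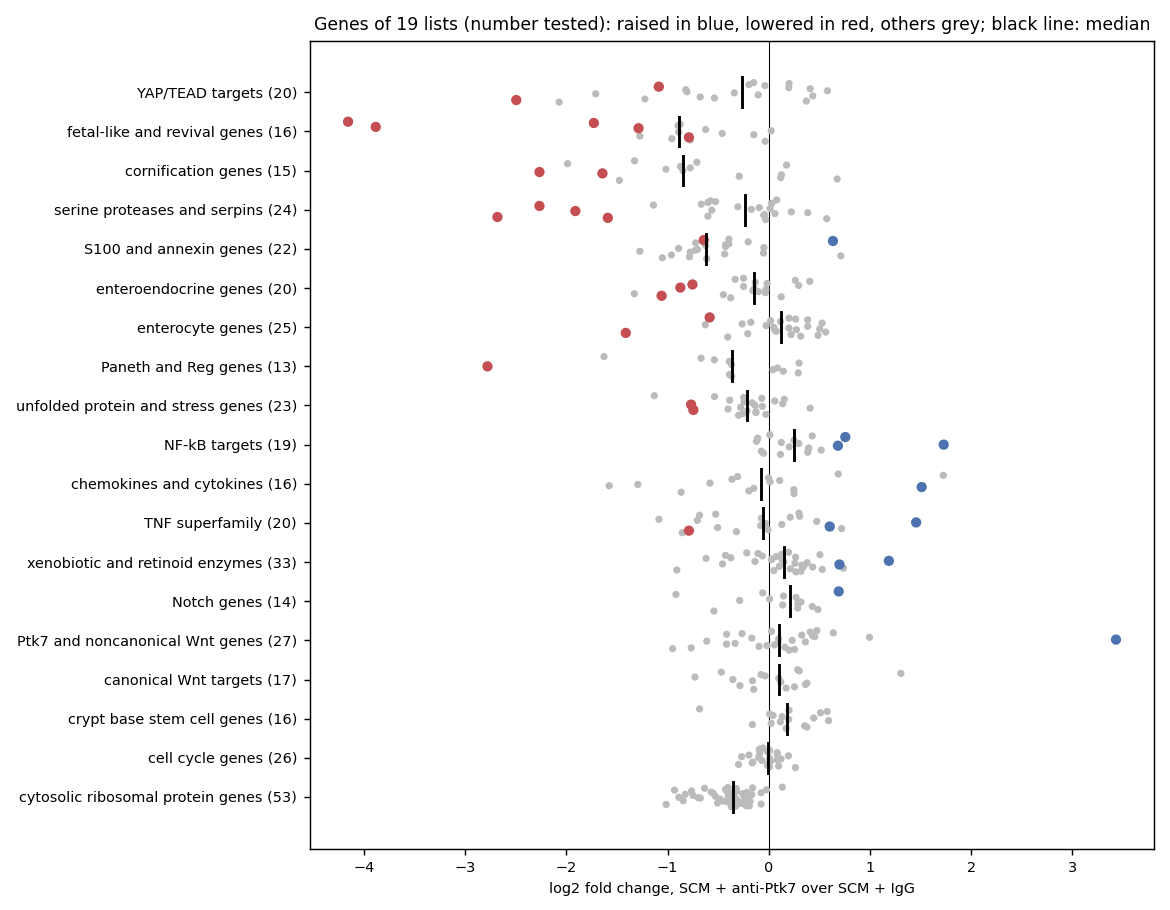
log2 fold change of SCM + anti-Ptk7 over SCM + IgG for the genes of 19 lists, each point a gene, with the number tested in parentheses, genes raised in blue, genes lowered in red and the median as a black line. The medians of the fetal-like genes (−0.88) and cornification genes (−0.85) lie farthest below 0; without both outlying libraries they were −0.64 and −0.50.

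In Wnt5a medium, whose libraries are not shared with the SCM comparison, anti-Ptk7 raised 70 genes (0.452%) and lowered 67 (0.432%), or 131 (0.845%) and 124 (0.8%) with the replicate block. Without Wnt5a + anti-Ptk7 replicate 5 the counts were 40 and 41. Of the 90 genes raised in SCM, 25 were raised in Wnt5a and none was lowered, which is 27.8% of the SCM list and 35.7% of the Wnt5a list. Of the 100 lowered in SCM, 30 were lowered in Wnt5a and none raised, 30% and 44.8% of the lists. The estimate in Wnt5a was above 0 for 87 of the 90 and below 0 for 96 of the 100, beside 51.0% above and 49.0% below over all genes. The median log2 fold changes in Wnt5a were 0.51 for the 90 and −0.73 for the 100, against 0.78 and −1.14 in SCM, where the genes were chosen.

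Genes that passed in both media were Ly6c1 (−4.42 ± 0.66 in Wnt5a, adjusted p = 0.000151), Ly6a (−1.55 ± 0.29, adjusted p = 0.00263) and Ccn2 (−1.86 ± 0.49, adjusted p = 0.0306). Among the hormone and stress genes they were Cck (−0.83 ± 0.13, adjusted p = 0.000155), Gip (−0.83 ± 0.21, adjusted p = 0.0201), Sdf2l1 (−0.73 ± 0.10, adjusted p = 3.14e-05) and Chac1 (−0.88 ± 0.19, adjusted p = 0.00683). On the raised side they included Dio1 (1.53 ± 0.18, adjusted p = 9.65e-06), Cyp1a1 (1.497 ± 0.37, adjusted p = 0.0188), Ccl20 (1.00 ± 0.27, adjusted p = 0.0323) and Tnfsf13b (1.35 ± 0.35, adjusted p = 0.0253). Thbs1 (−0.68 ± 0.28, adjusted p = 0.223), Vnn1 (0.62 ± 0.20, adjusted p = 0.0791) and Nfkbia (0.43 ± 0.13, adjusted p = 0.0617) did not pass in Wnt5a.

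The difference between the antibody's effects in the 2 media was tested as an interaction without a replicate block, and edgeR called 0 of 15497 genes (0%), with 602 at an unadjusted p under 0.05. DESeq2 and voom with limma also called 0. A fit that took replicate as a block called 3. A gene called in SCM alone is not shown to respond to the antibody differently in the 2 media.

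**Figure D5:**
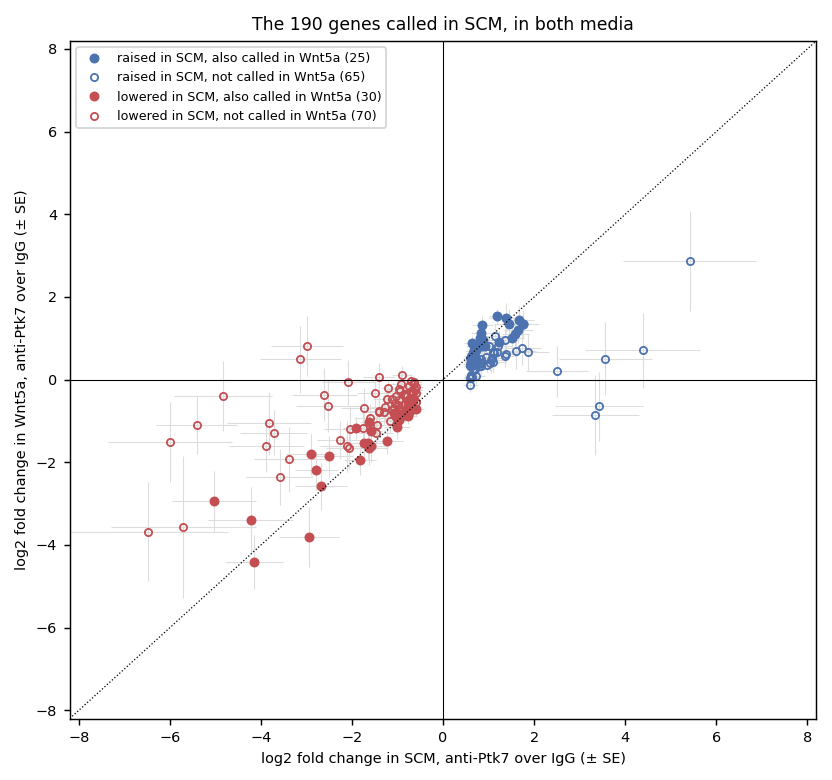
log2 fold change of anti-Ptk7 over IgG in SCM (horizontal) and in Wnt5a (vertical), each ± SE, for the 190 genes called in SCM; filled points were called in both media, and the dotted line marks equal folds. Of the 90 raised in SCM (blue) 87 lie above 0 in Wnt5a, and of the 100 lowered (red) 96 lie below 0.

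The levels in media without SCM were placed beside these values. The comparison of SCM + IgG with complete media called 4.96% of genes higher and 1.12% lower. It shares the SCM + IgG libraries with the antibody comparison, so the values are only given side by side. Complete media was not conditioned by fibroblasts, so this comparison cannot tell senescence of the fibroblasts from conditioning as such. Against QCM, 267 genes had an edgeR adjusted p under 0.05 at any fold, beside 1842 against complete media. Ccn2 was at 9.87 ± 7.58 CPM (mean ± SD, n = 6) in complete media, 13.5 ± 7.97 CPM in QCM, 47.5 ± 21.8 CPM in SCM + IgG and 8.48 ± 5.26 CPM in SCM + anti-Ptk7. Thbs1 was at 21.9 ± 6.92, 25.1 ± 11.7, 78.4 ± 20.9 and 36.8 ± 7.12 CPM in the same order. For these 2 genes SCM + IgG was called higher than complete media (log2 fold change 2.27 ± 0.51, adjusted p = 0.0027, and 1.84 ± 0.30, adjusted p = 6.29e-05).

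Ly6a was at 129 ± 61.7, 143 ± 52.4, 257 ± 117 and 77.6 ± 35.4 CPM in that order, and Plat at 22.9 ± 8.68, 19.6 ± 4.25, 31.2 ± 9.22 and 8.27 ± 3.38 CPM. Gip was at 42.1 ± 6.25, 48.6 ± 7.71, 46.1 ± 8.69 and 22.1 ± 7.55 CPM. Ly6a was called higher in SCM + IgG than in complete media (1.00 ± 0.29, adjusted p = 0.0206), while for Plat (0.45 ± 0.27, adjusted p = 0.316) and Gip (0.13 ± 0.20, adjusted p = 0.746) the difference between SCM + IgG and complete media did not reach the call. For all 3 genes the mean with anti-Ptk7 in SCM was also the lowest of the 4 conditions.

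Among the genes raised, Ccl20 was at 7.72 ± 3.48, 9.5 ± 4.16, 11.7 ± 1.2 and 33.4 ± 10.5 CPM, Nfkbia at 112 ± 28.6, 141 ± 21.2, 129 ± 18.5 and 207 ± 26.3 CPM, and Vnn1 at 6.46 ± 1.57, 6.57 ± 1.82, 6.38 ± 1.5 and 16.7 ± 2.96 CPM. For each the mean was highest in SCM + anti-Ptk7 among these 4 conditions. Dio1 was at 7.75 ± 2.12, 15 ± 2.44, 20.3 ± 4.67 and 46.2 ± 6.23 CPM, and it was higher in SCM + IgG than in complete media as well (1.40 ± 0.19, adjusted p = 4.32e-06). Against QCM the log2 fold change of SCM + IgG was 0.44 ± 0.18 (adjusted p = 0.205), and Dio1 was not called. Cyp1a1 was at 87.6 ± 54, 73.5 ± 40.2, 60.1 ± 33.1 and 157 ± 68.2 CPM. In each of the 6 conditions the libraries numbered 1 and 5 were those with the most Cyp1a1.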

How the data were processed

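RNA was isolated from the organoids, cDNA was amplified from low input with the Smart-Seq V4 kit, and libraries were made with Nextera XT, which does not mark strand. The authors aligned the reads with GSNAP (per the submitters' processing notes) to mm10 and deposited raw counts per gene, one table per library. The annotation and the treatment of multiply mapped reads are not given in the sources used here.

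Counts of all 36 libraries were filtered with filterByExpr, scaled by TMM and fitted with 1 mean per condition in edgeR 4.0.16 (quasi-likelihood test, R 4.3.3), without a replicate block. The study's own tool, voom with limma (3.58.1), and DESeq2 (1.42.0) were alternatives. A gene was called where its Benjamini-Hochberg adjusted p was below 0.05 and its fold above 1.5. log2 fold changes carry their standard error, CPM values use TMM-scaled library sizes and are not corrected for gene length, and the precision is limited by 6 libraries a group. The fit was also run on simulated data, and the outcome of that run is not given here.

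Named genes were Ptk7, the 20 largest folds in each direction among genes with a mean log2 CPM over 1 and no overlap between groups, the 5 with the highest mean CPM in each direction, and every called gene of the lists. The comparison, lists and members were chosen with earlier results of these data known. Gene positions are on GRCm38. No 2 libraries of an SCM group agreed within sampling noise (chi-square per gene 7.28 to 61.75 over 30 pairs).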

Additional observations from a re-analysis of the deposited data

Results flagged for a closer look

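In each group of 6, the gap between the highest or lowest library and its nearest neighbor was divided by the group's range on the scale of log2(CPM + 0.5), and ratios over Dixon's critical value were noted. This held for 12 of 140 groups of named genes (8.57%). In independent groups with a normal spread about 1 in 20 would pass. The groups here share the same libraries, and part of the genes were chosen for no overlap. The share therefore cannot be set against 1 in 20. SCM + IgG replicate 1, which also stood apart on the principal components, was the lowest for Idua (2.67 CPM, ratio 0.6295) and Tnfrsf11a (31.7 CPM, ratio 0.6875) and the highest for Ecscr (4.62 CPM, ratio 0.8405) and Basp1 (2.34 CPM, ratio 0.6592). SCM + IgG replicate 5 was the highest for Dennd4b (6.18 CPM, ratio 0.8646) and the lowest for Tnfaip2 (0 CPM, ratio 0.7029) and Cck (76.8 CPM, ratio 0.6682).

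Among the anti-Ptk7 libraries, replicate 4 was the lowest for Ccdc3 at 8.04 CPM, with the next library at 18.4 CPM (ratio 0.8695). Replicate 1 was the lowest for Ccl20 at 13.8 CPM, with the next at 30.4 CPM (ratio 0.7078), the lowest for Cck at 37.6 CPM (ratio 0.7245) and the highest for Basp1 at 0.287 CPM (ratio 0.7239). Replicate 6 was the lowest for Rnf32 at 22.5 CPM (ratio 0.7333). For Ccl20 and Ccdc3 the outlying anti-Ptk7 library was the one nearest to the IgG range.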

How the results depend on the processing

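Every one of the 69 named genes called in SCM kept its direction under the alternatives that could be fitted, and 9 stayed called under all of them, 26 under all but glmTreat. DESeq2 called 161 genes raised in SCM and 106 in Wnt5a, and keeping genes with low counts gave 45 raised in Wnt5a. Of the 69 named calls in SCM, DESeq2 kept 68, and the fit that kept genes with low counts lost 11. Testing against the fold of 1.5 (glmTreat) gave 2 raised and 10 lowered in SCM and 1 and 1 in Wnt5a. Estimating the spread from the 12 libraries alone gave 44 raised and 42 lowered in SCM. Leaving out both outlying SCM libraries, an alternative chosen after seeing the data, gave 39 and 51. With each library left out in turn, 47 to 113 genes were raised and 58 to 119 lowered in SCM, and 40 to 77 were raised and 41 to 80 lowered in Wnt5a. No gene differed between the media in those of these fits that tested it. The cause of these differences was not tested. Genes of few counts, such as Wnt5b and Basp1, are limited by depth.

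The labels number the replicates 1 to 6 in every condition. Whether the numbers pair the libraries was checked by correlating same-numbered deviations from the group means in SCM, which were 0.149, 0.129, 0.184, 0.013, 0.034 and −0.007. Of these 3 of 6 were over 0.1, where the limit set for pairing asked for all 6, and 2 of 6 IgG libraries correlated best with their own number. The reported calls therefore use no block, and whether the numbers are those of the mice is not stated in the labels. A limit on correlations over all genes cannot exclude that the numbers pair the libraries. Libraries 1 and 5 held the most Cyp1a1 in each condition. Of 70 named genes, 6 were highest in replicate 1 in all 6 conditions. With the replicate block, 163 genes were raised and 236 lowered in SCM, 131 and 124 in Wnt5a, and 3 differed between the media. With the block in fits of 12 libraries, 81 and 128 genes were called in SCM and 178 and 164 in Wnt5a.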
